A study of Mus musculus with 58 samples.

Results

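Muscle fibres keep their excitability by moving water, sodium, potassium and chloride across the surface membrane, and the genes described here encode proteins of that membrane and of the small vessels around the fibres. They are Aqp4 and Aqp1, which encode water channels, Atp1b2 and Atp1b1, which encode beta subunits of the sodium pump, and Clcn1, which encodes the chloride channel ClC-1. The genes were taken by symbol from a list of 6 on the array's annotation. They were chosen with earlier results of these data known, so contrasts of the 5 with all genes are descriptions. Probe sets were found for 5 of the 6, out of 23185 named genes in all, and Scn4a was not analysed here. Each gene had 1 probe set.

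The tumour-bearing mice were patient-derived xenograft (PDX) mice: human pancreatic ductal adenocarcinoma was attached to the pancreas, and cachexia, the loss of body weight and muscle seen in cancer, followed. Sham mice underwent surgery but received no tumour. All mice were adult females of the NSG strain, which is immunodeficient and accepts human tissue, and the ages were not given. Each of 4 cohorts received the tumour of 1 patient and had its own sham group, so a cohort is also 1 tumour. RNA was measured in the diaphragm, which drives inspiration, and in the tibialis anterior, a fast muscle of the shin, with 17 PDX and 12 sham arrays per muscle. Cohorts 1, 2, 3 and 4 had 3, 5, 5 and 4 PDX arrays and 3 sham arrays each per muscle. Values are log2 expression levels, so a difference of 1 is a doubling.

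Aquaporin 4 is the main water channel of fast fibres. It is held in the surface membrane by the dystrophin complex through syntrophins. Aquaporin 1 is known mainly from the endothelium of capillaries. The sodium pump exports sodium and imports potassium after each action potential, and its beta subunit is needed for folding and delivery of the catalytic alpha subunit. In rats, the beta 1 form is known from slow oxidative fibres and the beta 2 form from fast glycolytic ones. ClC-1 carries most of the resting chloride conductance of the fibre, and loss of the channel gives myotonia, in which fibres fire repeatedly after a stimulus.

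Promoters of Clcn1, Aqp1 and Atp1b1 were read from RefSeq (GRCm38.p6), each from 250 bases before to 50 after the start of the gene. Clcn1 and Aqp1 were lower in the diaphragm than in the tibialis anterior of both sham and PDX mice. Atp1b1 was not, and the promoters are shown for that reason. Aqp4 and Atp1b2 were lower in both too, but their promoters are not reported here. The window of Clcn1 is chr6:42286435-42286734 (plus strand), that of Aqp1 chr6:55336049-55336348 (plus strand) and that of Atp1b1 chr1:164458306-164458605 (minus strand). Capitals mark matches on either strand to CANNTG, the E-box bound by myogenic factors such as MyoD, and to the consensus of MEF2, a muscle transcription factor. Each sequence runs 5′ to 3′ on the strand of its gene.
Clcn1: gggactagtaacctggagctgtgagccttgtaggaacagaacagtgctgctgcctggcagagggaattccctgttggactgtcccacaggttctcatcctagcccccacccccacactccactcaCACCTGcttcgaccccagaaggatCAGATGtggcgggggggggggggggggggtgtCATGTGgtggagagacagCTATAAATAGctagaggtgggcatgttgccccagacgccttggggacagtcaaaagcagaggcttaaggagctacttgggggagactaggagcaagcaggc
Aqp1: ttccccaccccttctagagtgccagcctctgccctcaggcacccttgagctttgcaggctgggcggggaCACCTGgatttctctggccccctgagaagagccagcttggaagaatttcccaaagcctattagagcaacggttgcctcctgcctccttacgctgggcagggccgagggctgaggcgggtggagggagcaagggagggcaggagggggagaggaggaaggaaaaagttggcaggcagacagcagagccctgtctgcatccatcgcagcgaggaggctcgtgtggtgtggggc
Atp1b1: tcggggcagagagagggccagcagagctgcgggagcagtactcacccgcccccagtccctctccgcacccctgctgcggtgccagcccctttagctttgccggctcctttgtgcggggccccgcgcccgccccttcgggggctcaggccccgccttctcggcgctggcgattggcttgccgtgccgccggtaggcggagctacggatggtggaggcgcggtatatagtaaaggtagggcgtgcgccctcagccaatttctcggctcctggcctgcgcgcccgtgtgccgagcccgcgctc

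The Clcn1 window held 3 E-boxes, which began at positions -125, -101 and -69 relative to the start, and 1 match to the MEF2 consensus, CTATAAATAG, at -51. The Aqp1 window held 1 E-box and the Atp1b1 window 0. Among 32851 RefSeq promoters of the same length, 72.3% held an E-box and 3.19% held the MEF2 consensus. The marked motifs did not overlap each other. GGGCGG, the core of the GC box, was found at 2 places in the Atp1b1 window and at 1 in the Aqp1 window, against 35.7% of all promoters with a match. TGTTCT, an arm of the glucocorticoid response element, had 1 match, in the Clcn1 window, against 19% of all promoters. A match is a description of the letters and shows no binding.

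Some arrays stood apart from the others of their muscle. TA PDX cohort 3 replicate 1 had a median correlation of 0.945 with the other tibialis anterior arrays, against 0.970 for the next lowest. For the 5 genes, its removal is given below where it changed a call or moved a value by over 1.5 times. Hepatocyte genes were high in many diaphragm arrays: the mean of 19 markers ran from 3.70 to 10.79 in PDX and from 3.74 to 10.62 in sham diaphragms, against 3.21 to 5.84 in PDX and 3.09 to 5.12 in sham tibialis anterior arrays. By limma, 0 of the 19 markers passed between PDX and sham mice in either muscle, and 0 had an unadjusted p under 0.05. In the diaphragm their differences ran from -2.23 to 0.44. With so wide a spread within each diaphragm group, the test does not show equal levels. Arrays whose marker mean was over 1 log2 unit above the median of their muscle were also left out. They were 6 PDX and 5 sham diaphragm arrays, and 3 PDX and 1 sham tibialis anterior arrays. For the 5 genes, results without them are given below where they changed. The other named genes and the lists were not examined under either removal. Myh7, the slow myosin heavy chain, averaged 9.16 in sham diaphragms and 3.47 in sham tibialis anterior muscles. In bulk tissue, fewer cells of a type and less RNA per cell cannot be told apart.

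**Figure D1:**
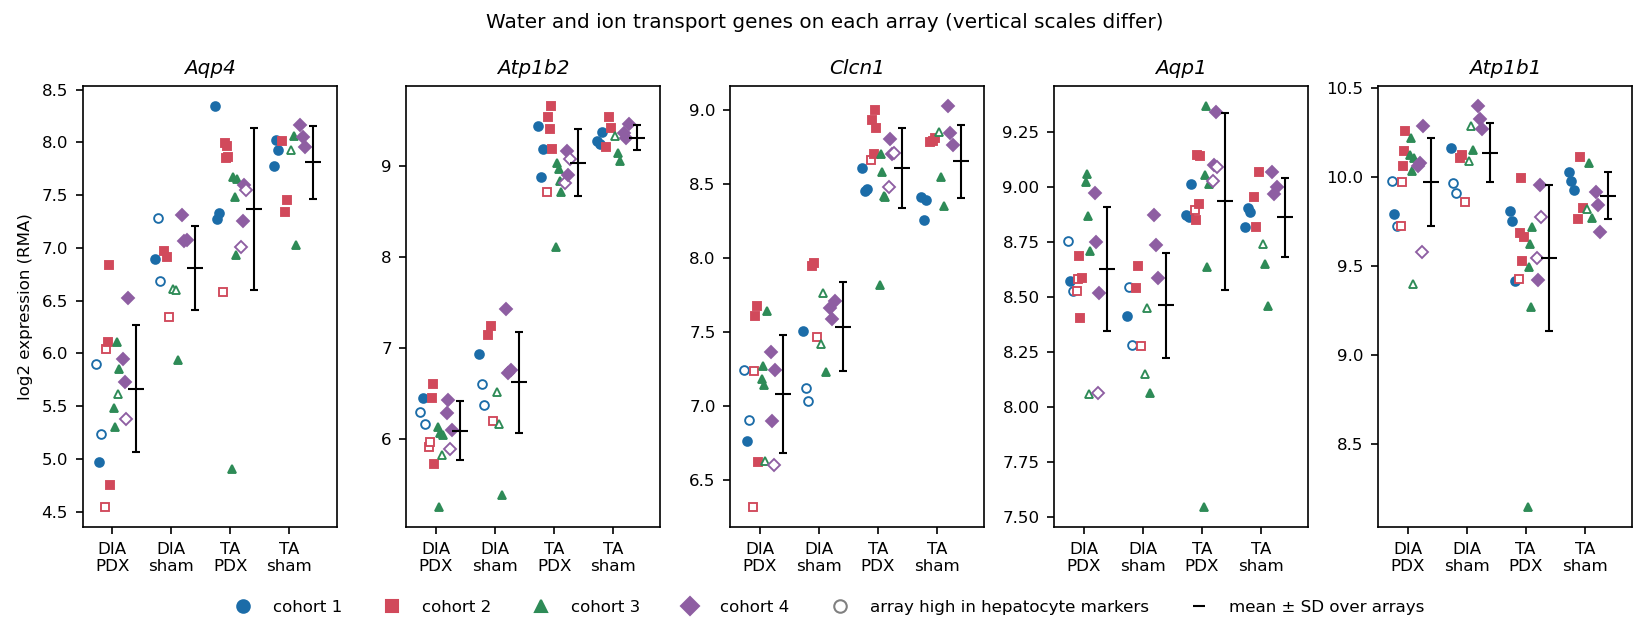
Log2 expression (vertical axis, scales differ between genes) of the 5 genes on each of the 58 arrays, for diaphragm (DIA) and tibialis anterior (TA) of PDX and sham mice. Colour and shape give the cohort, open symbols mark arrays high in hepatocyte markers, and bars are mean ± SD over 17 PDX or 12 sham arrays. Within PDX mice and within sham mice, all diaphragm values of Atp1b2 and Clcn1 lie below all tibialis anterior values. Aqp4 is lowest in PDX diaphragms.

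In sham mice, 4 of the 5 genes were lower in the diaphragm than in the tibialis anterior and none was higher. Atp1b2 differed most, at 0.156 of the tibialis anterior level, and Clcn1 and Aqp4 were at 0.461 and 0.499 of it. The comparison asked how the muscles differ without a tumour. By limma's test with a Benjamini-Hochberg adjusted p under 0.05 over all genes, 39.7% of the 23185 genes passed, 15.2% higher and 24.5% lower in the diaphragm. The median difference was -1.003 over the 5 genes and -0.09 over all genes.

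Atp1b2 had levels of 5.39 to 7.43 (median 6.67) in sham diaphragms, against 9.06 to 9.54 (median 9.32) in sham tibialis anterior muscles. No diaphragm reached the lowest tibialis anterior. The mean difference was -2.68 (SE 0.13, 0.156-fold, adjusted p = 4.80e-22), with -2.66, -2.53, -3.15 and -2.40 in cohorts 1 to 4. It ranked 32nd by p among all genes.

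Clcn1 had levels of 7.03 to 7.96 (median 7.55) in sham diaphragms and 8.26 to 9.02 (median 8.77) in sham tibialis anterior muscles, again with no overlap. The difference was -1.12 (SE 0.12, 0.461-fold, adjusted p = 1.08e-10), and the cohort values lay between -1.22 and -1.002.

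Aqp4 had levels of 5.94 to 7.31 (median 6.90) in sham diaphragms and 7.03 to 8.17 (median 7.94) in sham tibialis anterior muscles. The ranges overlapped, and 8 of 12 diaphragms lay below every tibialis anterior. The difference was -1.003 (SE 0.23, 0.499-fold, adjusted p = 0.000598).

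Aqp1 had levels of 8.07 to 8.87 (median 8.50) in sham diaphragms and 8.46 to 9.07 (median 8.90) in sham tibialis anterior muscles, which overlapped. The difference was -0.40 (SE 0.12, 0.759-fold, adjusted p = 0.00612). It did not pass without cohort 1 (adjusted p = 0.0521) or without cohort 2 (adjusted p = 0.0551). Of 18 markers of endothelium, the cell type Aqp1 is known from, 5 were higher in the diaphragm, none was lower and 13 did not pass, with a list mean of 6.55 to 6.92 in sham diaphragms and 6.41 to 6.74 in sham tibialis anterior muscles. Pecam1, an adhesion protein of endothelium, had a difference of 0.20 (adjusted p = 0.0447). The part of endothelium in the Aqp1 difference was not tested.

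Atp1b1 had levels of 9.86 to 10.40 (median 10.14) in sham diaphragms and 9.69 to 10.11 (median 9.88) in sham tibialis anterior muscles. The ranges overlapped, with 7 of 12 diaphragms above every tibialis anterior. The difference of 0.24 (SE 0.11, adjusted p = 0.0788) did not pass. Because the fit shares its estimate of spread over all arrays, leaving out TA PDX cohort 3 replicate 1 brought the adjusted p to 0.0186 at the same difference.

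Fibre genes and markers of other cell types differed along with these genes, and their part in the differences was not tested. Myh4, the myosin of the fastest fibres, averaged 10.01 in sham diaphragms and 11.99 in sham tibialis anterior muscles (difference -1.98, adjusted p = 4.86e-06). Myh2, the myosin of fast oxidative fibres, was higher by 0.95 (adjusted p = 4.33e-06), and Myh7 by 5.69. Of 13 fast fibre genes, 9 were lower and 1 higher, and of 10 slow fibre genes 9 were higher and none lower. All 8 mesothelial markers were higher in the diaphragm (list means of 5.41 to 6.32 in sham diaphragms and 3.46 to 3.82 in the sham tibialis anterior), as were all 9 adipocyte markers (5.35 to 6.87 in sham diaphragms and 4.14 to 4.84 in the sham tibialis anterior). Of 11 macrophage markers 10 were higher (5.28 to 6.40 in sham diaphragms and 4.40 to 5.15 in the sham tibialis anterior). Of 11 fibroblast markers 7 were higher (6.94 to 7.65 in sham diaphragms and 6.61 to 7.22 in the sham tibialis anterior), and none of either list was lower. Of 5 erythroid markers 3 were higher, and of 9 Schwann cell and nerve markers 3. All 19 hepatocyte markers were higher in sham diaphragms, with a median difference of 3.17 (range 2.44 to 4.62).

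**Figure D2:**
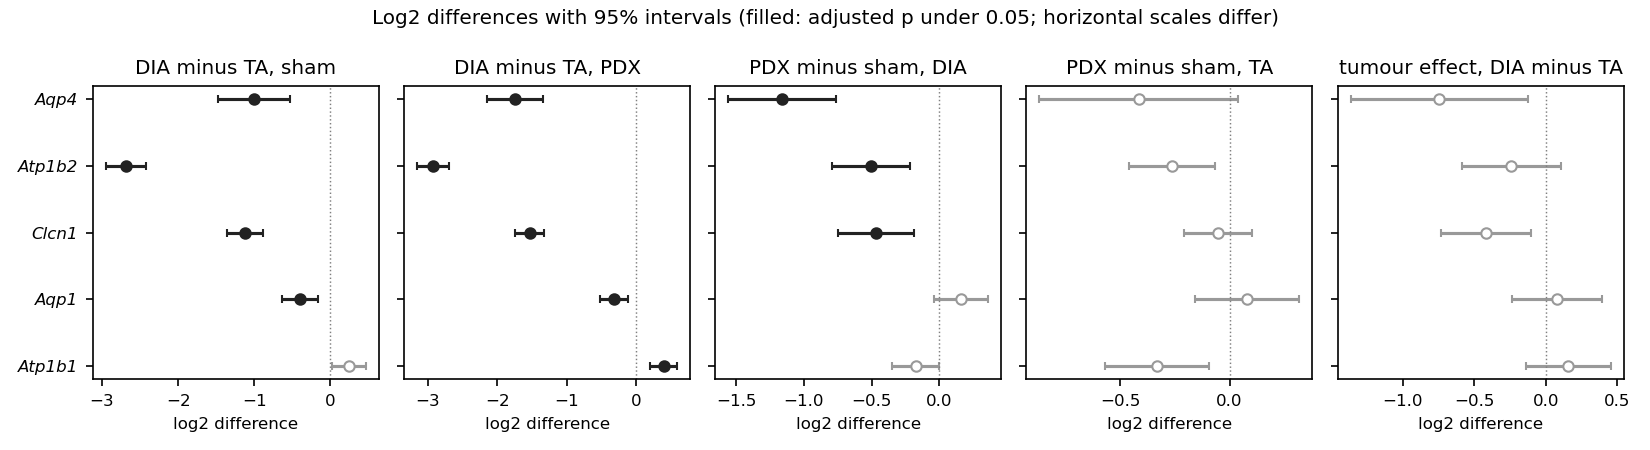
Log2 differences of the 5 genes (horizontal axis, scales differ between panels) with 95% intervals from limma: diaphragm minus tibialis anterior in sham mice and in PDX mice, PDX minus sham in each muscle, and the tumour effect in the diaphragm minus that in the tibialis anterior. Filled points passed an adjusted p under 0.05. Aqp4, Atp1b2 and Clcn1 passed below 0 in PDX diaphragms, and no gene passed in the PDX tibialis anterior or in the difference of the tumour effects.

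In the diaphragm of tumour-bearing mice, Aqp4, Atp1b2 and Clcn1 fell and Aqp1 and Atp1b1 did not pass. Aqp4 fell to 0.448 of its sham level. The comparison asked what the tumour changes in the diaphragm. By limma, 12.5% of all genes passed, 5.89% higher and 6.58% lower in PDX mice. The median difference was -0.47 over the 5 genes and -0.004 over all genes.

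Aqp4 had levels of 4.54 to 6.84 (median 5.73) in PDX diaphragms, against 5.94 to 7.31 (median 6.90) in sham diaphragms. Of the 17 PDX diaphragms, 16 lay below the sham mean of their cohort and 11 lay below every sham diaphragm. The difference was -1.16 (SE 0.19, 0.448-fold, adjusted p = 0.000243), and only 1.23% of all genes had a smaller p. Cohort values were -1.59, -1.09, -0.71 and -1.25 for cohorts 1 to 4. Within cohorts 1 to 4, PDX means of 5.37, 5.66, 5.67 and 5.90 stood beside sham means of 6.96, 6.74, 6.38 and 7.15. Without the arrays high in hepatocyte markers the difference was -1.07 (adjusted p = 0.0210).

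Atp1b2 had levels of 5.25 to 6.61 (median 6.10) in PDX diaphragms and 5.39 to 7.43 (median 6.67) in sham diaphragms. The ranges overlapped, and 14 of 17 PDX arrays lay below the sham mean of their cohort. The difference was -0.50 (SE 0.14, 0.705-fold, adjusted p = 0.0160), with -0.33, -0.73, -0.16 and -0.79 in cohorts 1 to 4.

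Clcn1 had levels of 6.32 to 7.68 (median 7.18) in PDX diaphragms and 7.03 to 7.96 (median 7.55) in sham diaphragms. These ranges overlapped too, with 7 PDX arrays below every sham array and 15 of 17 below the sham mean of their cohort. The difference was -0.47 (SE 0.13, 0.723-fold, adjusted p = 0.0208), with -0.25, -0.70, -0.30 and -0.63 in cohorts 1 to 4. Without the arrays high in hepatocyte markers neither gene passed: the difference was -0.41 for Atp1b2 (adjusted p = 0.197) and -0.45 for Clcn1 (adjusted p = 0.0946). Without cohort 2 the adjusted p was 0.0901 for Atp1b2 and 0.0648 for Clcn1, and without cohort 4 it was 0.139 and 0.121.

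Aqp1 had levels of 8.06 to 9.06 (median 8.59) in PDX diaphragms and 8.07 to 8.87 (median 8.50) in sham diaphragms, which overlapped almost wholly. The difference was 0.16 (95% interval -0.04 to 0.36, adjusted p = 0.345). Of 18 endothelial markers, 2 were higher and 1 lower in PDX diaphragms, among them Pecam1, with a rise of 0.34 (adjusted p = 0.0107), and Kdr, a receptor of vascular growth factor, which fell by 0.23 (adjusted p = 0.0409). Their list mean was 6.33 to 7.23 in PDX and 6.55 to 6.92 in sham diaphragms.

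Atp1b1 had levels of 9.40 to 10.29 (median 10.06) in PDX diaphragms and 9.86 to 10.40 (median 10.14) in sham diaphragms. The ranges overlapped, with 5 PDX arrays below every sham array. The difference of -0.18 (95% interval -0.35 to -0.01, adjusted p = 0.195) did not pass. With the hepatocyte marker mean as a covariate, an alternative chosen after the data were seen, it was -0.19 (adjusted p = 0.0470).

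Macrophage markers moved with the tumour in the diaphragm: 9 of 11 rose and none fell, with list means of 5.93 to 7.47 in PDX and 5.28 to 6.40 in sham diaphragms. Myh4 averaged 8.88 in PDX and 10.01 in sham diaphragms, a difference of -1.12 that did not pass (SE 0.43, adjusted p = 0.0905). Myh7 (-0.14, adjusted p = 0.615), Myh2 (-0.09, adjusted p = 0.596) and Myh1, a fast myosin (-0.06, adjusted p = 0.723), did not pass. Of 13 fast fibre genes, 2 fell and none rose: Pvalb, the calcium buffer parvalbumin, by 0.90 (adjusted p = 0.00352) and Casq1, a calcium store protein, by 0.53 (adjusted p = 0.00314). Of 10 slow fibre genes, 1 fell and none rose, and 6 had an unadjusted p under 0.05. It was Atp2a2, the calcium pump of slow fibres, which fell by 0.39 (adjusted p = 0.00214). The median difference was -0.09 over the fast list and -0.30 over the slow list. Of 12 denervation genes, 2 rose and 1 fell. Runx1 rose by 0.94 (adjusted p = 2.21e-05) and Gadd45a, a stress gene, by 0.54 (adjusted p = 0.0357), and Dach2 fell by 0.38 (adjusted p = 0.0433). The part of macrophages, of denervation or of fibre makeup in the fall of Aqp4, Atp1b2 and Clcn1 was not tested.

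In the tibialis anterior of tumour-bearing mice, none of the 5 genes passed limma's test, and Atp1b1 and Atp1b2 had an unadjusted p under 0.05. Among all genes 12.8% passed, 6.32% higher and 6.53% lower in PDX mice. The median difference was -0.26 over the 5 genes and -0.005 over all genes.

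Atp1b1 had levels of 8.15 to 9.996 (median 9.62) in PDX and 9.69 to 10.11 (median 9.88) in sham muscles. The ranges overlapped, though 11 of 17 PDX arrays lay below every sham array and 15 of 17 below the sham mean of their cohort. The difference was -0.33 (SE 0.12, 0.793-fold, adjusted p = 0.0575), with -0.32, -0.24, -0.64 and -0.14 in cohorts 1 to 4. Without TA PDX cohort 3 replicate 1, the lowest array, it was smaller and passed (-0.27, SE 0.07, adjusted p = 0.0130).

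Atp1b2 had levels of 8.11 to 9.66 (median 9.03) in PDX and 9.06 to 9.54 (median 9.32) in sham muscles. Of the PDX arrays, 9 lay below every sham array and 1 above. The difference was -0.26 (SE 0.10, 0.834-fold, adjusted p = 0.0718), and -0.22 (adjusted p = 0.0708) without TA PDX cohort 3 replicate 1.

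Aqp4 had levels of 4.91 to 8.34 (median 7.55) in PDX and 7.03 to 8.17 (median 7.94) in sham muscles. The ranges overlapped, with 4 PDX arrays below every sham array. The difference of -0.42 (95% interval -0.87 to 0.04, adjusted p = 0.268) was -0.29 (adjusted p = 0.241) without TA PDX cohort 3 replicate 1.

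Clcn1 had levels of 7.81 to 9.001 (median 8.66) in PDX and 8.26 to 9.02 (median 8.77) in sham muscles. The difference was -0.05 (95% interval -0.21 to 0.10, adjusted p = 0.765), and it was 0.01 without the arrays high in hepatocyte markers and -0.02 (adjusted p = 0.913) without TA PDX cohort 3 replicate 1. Aqp1 had levels of 7.55 to 9.37 (median 9.02) in PDX and 8.46 to 9.07 (median 8.90) in sham muscles. Its difference was 0.08 (95% interval -0.16 to 0.32, adjusted p = 0.767), and 0.16 (adjusted p = 0.116) without TA PDX cohort 3 replicate 1.

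Other cell markers moved in this muscle. All 11 fibroblast markers fell, with list means of 4.95 to 6.53 in PDX and 6.61 to 7.22 in sham muscles, and 7 of 8 tendon markers fell. Of 5 erythroid markers 4 rose, with list means of 2.86 to 6.15 in PDX and 2.88 to 4.12 in sham muscles. Of the 12 denervation genes 2 rose and none fell. Gadd45a, which rose in the diaphragm too, rose by 1.08 (adjusted p = 0.00116). Chrna1, a subunit of the acetylcholine receptor, rose by 0.60 (adjusted p = 0.000227). Of 18 endothelial markers 4 rose and 2 fell: Pecam1 rose by 0.27 (adjusted p = 0.00351) and Kdr fell by 0.87 (adjusted p = 0.000154). Myh2 fell by 1.49 (adjusted p = 2.84e-06), and Myh4 was 0.13 higher (adjusted p = 0.0380). Their part in the values of the 5 genes was not tested.

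**Figure D3:**
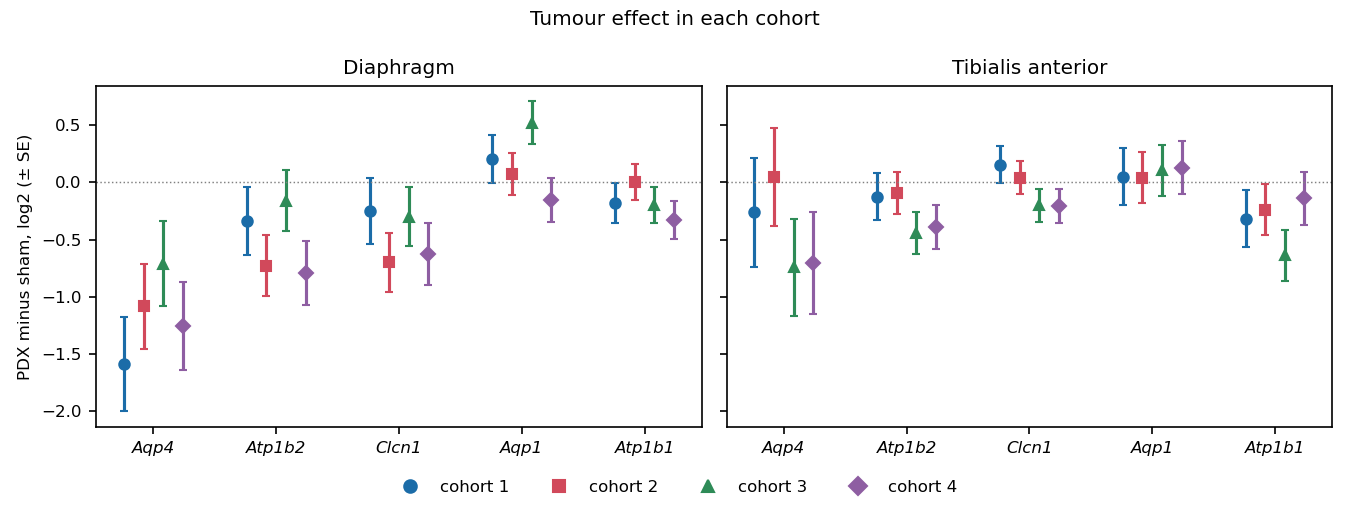
PDX minus sham in each cohort (vertical axis, log2, ± SE from limma) for the 5 genes, in the diaphragm and in the tibialis anterior. Colour and shape give the cohort, with 3 to 5 PDX and 3 sham arrays each. Aqp4, Atp1b2 and Clcn1 lie below 0 in all 4 cohorts of the diaphragm, whereas Aqp4 in the tibialis anterior ran from -0.74 to 0.05.

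The fall of Aqp4 in the diaphragm was not shown to differ from its change in the tibialis anterior. The test of the difference between the tumour effects asked this directly, and none of the 5 genes passed it, against 6.33% of all genes (3.66% higher, 2.67% lower). At an unadjusted p under 0.05 there were 2, Aqp4 and Clcn1. For Aqp4 the effect was -1.16 in the diaphragm and -0.42 in the tibialis anterior, a difference of -0.74 (SE 0.31, adjusted p = 0.156). For Clcn1 it was -0.47 in the diaphragm and -0.05 in the tibialis anterior, a difference of -0.42 (SE 0.16, adjusted p = 0.107). The adjusted p of Aqp4 was 0.0254 without TA PDX cohort 3 replicate 1 (difference -0.87), 0.0489 without cohort 3 (-1.002) and 0.0178 with array weights (-0.82). With array weights Clcn1 had 0.0252 (-0.40). The differences of Atp1b2 (-0.24, 95% interval -0.59 to 0.11), Atp1b1 (0.16, -0.14 to 0.45) and Aqp1 (0.08, -0.23 to 0.39) had intervals that included 0. Without TA PDX cohort 3 replicate 1 they were -0.28, 0.09 and 0.006, and none of the 3 passed.

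The effects of the 4 tumours were also compared within each muscle by limma's F test. No gene of the 5 passed in either muscle, and none had an unadjusted p under 0.05. Among all genes, 0.0129% passed in the tibialis anterior and 0.00431% in the diaphragm. Cohort values spread most, against their errors, for Aqp1 in the diaphragm (limma's F = 2.27, adjusted p = 0.753). They were 0.21, 0.07, 0.52 and -0.15 in cohorts 1 to 4.

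In tumour-bearing mice all 5 genes differed between the muscles, 4 lower and 1 higher in the diaphragm, against 53.8% of all genes (19.3% higher, 34.4% lower). Atp1b2 averaged 6.12 in PDX diaphragms and 9.05 in PDX tibialis anterior muscles, and the ranges did not overlap (-2.93, SE 0.11, 0.132-fold, adjusted p = 1.71e-26). Clcn1 averaged 7.07 in PDX diaphragms and 8.60 in PDX tibialis anterior muscles, also without overlap (-1.53, SE 0.10, adjusted p = 1.01e-17). Aqp4 averaged 5.65 in the diaphragm and 7.40 in the tibialis anterior (-1.75, SE 0.20, 0.298-fold, adjusted p = 3.08e-10). Aqp1 differed by -0.32 (SE 0.10, adjusted p = 0.00721). It did not pass without cohort 2 (adjusted p = 0.0928), without cohort 4 (0.0989) or without the arrays high in hepatocyte markers (0.0902). Atp1b1 averaged 9.96 in PDX diaphragms and 9.56 in PDX tibialis anterior muscles, a difference of 0.40 (SE 0.10, adjusted p = 0.000473). Without TA PDX cohort 3 replicate 1 all 5 genes passed with the same signs, Aqp1 at -0.39, Aqp4 at -1.87, Atp1b1 at 0.33, Atp1b2 at -2.96 and Clcn1 at -1.57.

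Aqp4 was lowest in PDX diaphragms, then sham diaphragms, then PDX and sham tibialis anterior muscles, and the last pair did not differ beyond the test. Atp1b2 and Clcn1 had the same order, with the tibialis anterior pair again not past the test. For Aqp1 the order was sham diaphragm, PDX diaphragm, sham and PDX tibialis anterior, with neither muscle's pair past the test. Atp1b1 was lowest in the PDX tibialis anterior, then in its sham group, then in PDX and sham diaphragms. Neighbours of different muscle and treatment were not tested.

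Over the 16 group means (muscle, cohort and treatment), Atp1b2 and Clcn1 ran together with Pearson r of 0.964, Aqp4 and Clcn1 with 0.896 and Aqp4 and Atp1b2 with 0.892. Atp1b1 had negative values with the other genes, from -0.57 with Atp1b2 to -0.25 with Aqp4. These points share the difference between the muscles, so the values are descriptions. Among 11593 genes at or above the median level, those most like Atp1b2 were Gpd2 (0.993), Prkab2 (0.992) and Slc16a3 (0.992), which encode a mitochondrial glycerol phosphate dehydrogenase, a subunit of AMP kinase and a lactate transporter. Those most like Clcn1 were Prr33 (0.987), AU040320 (0.987) and Phkb, a subunit of phosphorylase kinase (0.986). Aqp4 was most like Hikeshi (0.976), Klhl31 (0.967) and Ndufaf5, an assembly factor of respiratory complex I (0.967). Atp1b1 was most like Xpo1, a nuclear export receptor (0.936), Ogn, a small matrix proteoglycan (0.925), and Angptl1 (0.914), and Aqp1 like Art1 (0.947), Rcsd1 (0.899) and Pik3ip1 (0.897).

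The other genes of the same transport steps were taken as 7 lists with 95 measured genes. Between the sham muscles 20 were higher and 31 lower in the diaphragm (53.7% of the 95, against 39.7% of all genes). In the PDX diaphragm 10 rose and 11 fell, and in the PDX tibialis anterior 8 rose and 13 fell (22.1% in each muscle, against 12.5% and 12.8% of all genes). The tumour effect differed between the muscles for 4, 1 higher and 3 lower in the diaphragm (4.21% of the 95, against 6.33% of all genes). The shares of all genes include dim genes. Among the 11593 genes at or above the median level, 6230 passed between the sham muscles. There, 3045 passed in the PDX diaphragm, 3419 in the PDX tibialis anterior and 1633 for the difference of the tumour effects. The 95 genes were not compared with genes of like level, so an excess was not shown.

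**Figure D4:**
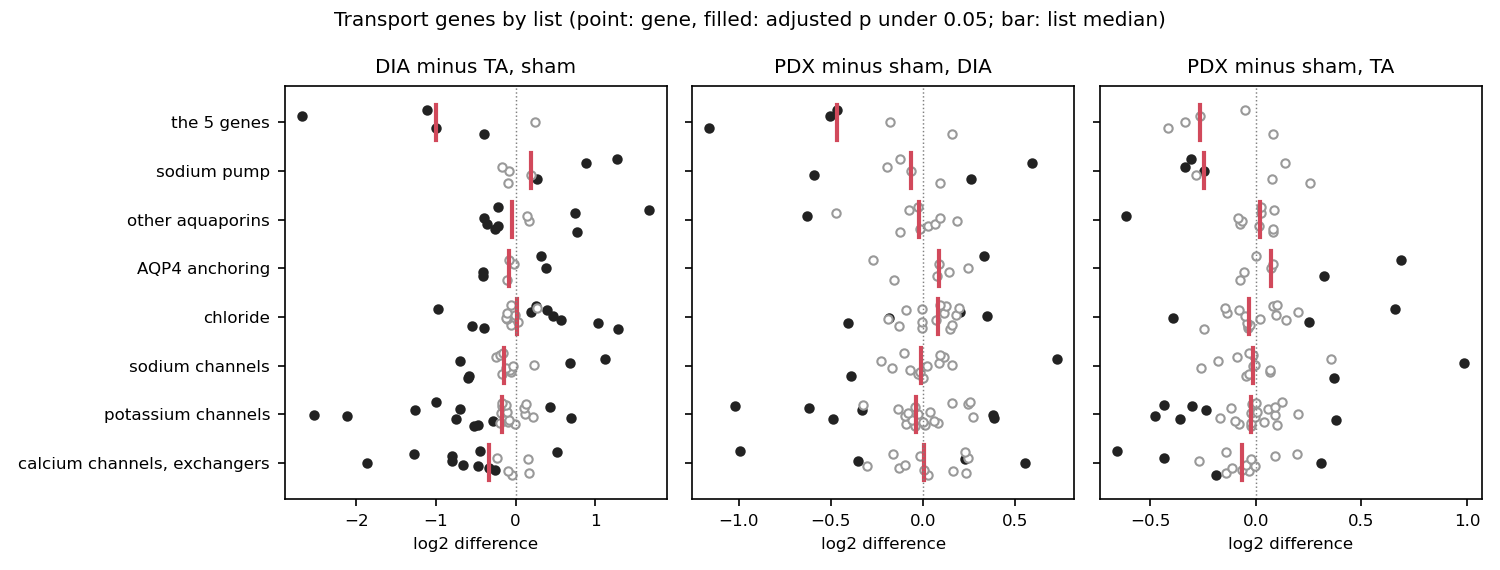
Log2 differences (horizontal axis, scales differ) of the 5 genes and of 95 further transport genes by list, for sham diaphragm minus sham tibialis anterior and for PDX minus sham in the diaphragm and the tibialis anterior. Each point is a gene, filled where it passed an adjusted p under 0.05, and the bar is the median of the list. In the PDX diaphragm the median of the 5 genes was -0.47, and those of the 7 lists ran from -0.07 to 0.09. The genes and lists were chosen with earlier results of these data known, so this contrast is a description.

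Among 7 other sodium pump genes, 3 were higher and none lower in sham diaphragms than in the sham tibialis anterior. Fxyd6 and Fxyd5, members of a family that regulates the pump, differed by 1.28 (adjusted p = 5.80e-17) and 0.89 (adjusted p = 1.11e-07). In PDX diaphragms Fxyd5 rose by 0.59 (adjusted p = 0.000858) and Atp1b3, another beta subunit, by 0.26 (adjusted p = 0.0141). Atp1b4, a related protein of the muscle nuclear envelope, fell by 0.59 (adjusted p = 0.0399). In the PDX tibialis anterior 3 of the 7 fell and none rose, among them Fxyd6 by 0.31 (adjusted p = 0.00718) and Fxyd1, phospholemman, the regulator of the muscle pump, by 0.25 (adjusted p = 0.00748). In PDX diaphragms Fxyd1 had a difference of -0.07 (adjusted p = 0.663).

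Of 10 other aquaporins, 1 passed in each muscle of PDX mice, and it was Aqp7, the glycerol channel of fat cells and capillaries. Aqp7 fell by 0.63 in the diaphragm (adjusted p = 0.00793) and by 0.62 in the tibialis anterior (adjusted p = 0.00143). Of 9 adipocyte markers, 1 fell in the diaphragm (Lep, which encodes leptin) and 3 had an unadjusted p under 0.05, with a median difference of -0.59 and list means of 4.85 to 6.86 in PDX and 5.35 to 6.87 in sham arrays. Their part in the fall of Aqp7 was not tested. None of the adipocyte markers passed in the tibialis anterior, where 2 had an unadjusted p under 0.05. Aqp9, known from hepatocytes, was higher by 1.68 in sham diaphragms than in the sham tibialis anterior (adjusted p = 0.0193), where the 19 hepatocyte markers were higher too. The next list held 7 genes of the complex that anchors aquaporin 4 or of channels that work with it. Between the sham muscles, 2 were lower and 2 higher in the diaphragm. Dmd, which encodes dystrophin, and Dtna, which encodes dystrobrevin, were lower by 0.41 each (adjusted p = 0.000374 and 0.000282). Dtnb, a relative of Dtna, was higher by 0.38 (adjusted p = 0.00644). Trpv4, a cation channel opened by cell swelling, was higher by 0.32 (adjusted p = 0.00384). In PDX diaphragms 1 of the 7 rose and none fell: Trpv4, by 0.33 (adjusted p = 0.0162). In the PDX tibialis anterior 2 of the 7 rose and none fell: Sntb1, a syntrophin, rose by 0.69 (adjusted p = 0.000131) and Dmd by 0.32 (adjusted p = 6.02e-05).

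Of 18 other chloride channel and transporter genes, 7 were higher and 3 lower in sham diaphragms than in the sham tibialis anterior. Slc12a2, the sodium-potassium-chloride cotransporter NKCC1, which brings chloride into cells, averaged 7.46 in sham diaphragms and 8.43 in the sham tibialis anterior (-0.97, adjusted p = 2.77e-11). It rose by 0.66 in the PDX tibialis anterior (adjusted p = 1.31e-07) and had a difference of -0.01 in the PDX diaphragm. The effects differed by -0.66 (adjusted p = 0.000532). Clcn5, an endosomal chloride exchanger, rose by 0.35 in the PDX diaphragm (adjusted p = 0.00642), and its effects differed by 0.40 (adjusted p = 0.0119). Clcn4, a relative of Clcn5, fell by 0.39 in the PDX tibialis anterior (adjusted p = 0.000420) and by 0.18 in the PDX diaphragm (adjusted p = 0.0352). Of the 18, 2 rose and 2 fell in the PDX diaphragm, and 2 rose and 1 fell in the PDX tibialis anterior.

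Among 14 sodium channel genes and anchors, 3 were lower and 2 higher in sham diaphragms than in the sham tibialis anterior. Scn4b, a beta subunit, was lower by 0.69 (adjusted p = 1.12e-07). Scn7a, a sodium channel known from nerve support cells and neurons, was higher by 1.12 (adjusted p = 5.03e-09). Scn3b, another beta subunit, was higher by 0.69 (adjusted p = 0.00357). With the tumour, Scn3b rose by 0.99 in the tibialis anterior (adjusted p = 0.00135), and its effects differed between the muscles by -0.90 (adjusted p = 0.0200). Scn7a rose by 0.73 in PDX diaphragms (adjusted p = 0.000447). Of 9 Schwann cell and nerve markers none rose and 4 fell there, with list means of 3.61 to 4.10 in PDX and 3.87 to 4.10 in sham diaphragms.

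Of 24 potassium channel genes, 9 were lower and 2 higher in sham diaphragms than in the sham tibialis anterior. Kcnc4 and Kcnc1, which encode Kv3 channels, differed by -2.53 (adjusted p = 1.49e-24) and -2.12 (adjusted p = 4.85e-18). Kcnj11, the pore of the ATP-sensitive channel, differed by -1.26 (adjusted p = 9.71e-16). With the tumour, 4 of the 24 fell and 2 rose in the diaphragm, and 5 fell and 1 rose in the tibialis anterior. Kcnc4 rose by 0.38 (adjusted p = 0.0457) and Kcnab1 by 0.39 (adjusted p = 0.0497) in the diaphragm. Kcna5 rose by 0.38 in the tibialis anterior (adjusted p = 0.00411). Kcnj11 fell by 0.33 in the diaphragm (adjusted p = 0.0210) and by 0.24 in the tibialis anterior (adjusted p = 0.0355). Kcnma1, the calcium-activated BK channel, fell by 1.02 in PDX diaphragms (adjusted p = 0.000126), and its effects differed by -0.72 (adjusted p = 0.0118). Kcnj2, the inward rectifier that sets the resting potential, fell by 0.62 in PDX diaphragms (adjusted p = 0.00200) and had -0.12 in the PDX tibialis anterior (adjusted p = 0.540), and the difference of these effects did not pass (-0.50, adjusted p = 0.0598).

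Of 15 calcium channel and exchanger genes, 9 were lower and 1 higher in sham diaphragms than in the sham tibialis anterior. Cacng1, a subunit of the muscle calcium channel, differed by -1.87 (adjusted p = 1.94e-16) and Slc8a3, a sodium-calcium exchanger, by -1.27 (adjusted p = 6.98e-11). With the tumour, Cacng1 rose by 0.55 in the diaphragm (adjusted p = 0.0135) and by 0.31 in the tibialis anterior (adjusted p = 0.00908). Slc9a2, a sodium-hydrogen exchanger, fell by 0.99 in the diaphragm (adjusted p = 5.43e-05) and by 0.66 in the tibialis anterior (adjusted p = 2.60e-05).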

How the data were processed

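RNA was extracted with TRIzol and hybridised to Affymetrix arrays with biotin label, per the labels' protocols. The deposited values are log2 expression levels of 25206 probe sets, made by the authors with RMA in affy 1.36.1 on R 2.15.1, as the submitters' processing notes list. The log2 scale was inferred from the range of the values. The sources used here do not give the genome build, the scan batches or whether RMA was run on all cohorts at once. The platform annotation named 23185 probe sets and left 2021 unnamed. No named gene was left out for being dim, so the shares given for all genes include dim ones. Precision is limited by the number of arrays.

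Tests used R 4.3.3 and limma 3.58.1 (lmFit, eBayes), two-sided, with Benjamini-Hochberg adjustment over all 23185 genes and a threshold of 0.05. The 29 arrays of each muscle were fitted with 8 means, 1 for each treatment in each cohort. The tumour effect averaged the 4 PDX minus sham differences with equal weights. Comparisons between muscles came from all 58 arrays with 16 group means. The scripts were tested on simulated data. The labels do not state that each array is a separate animal, so p-values measure the spread between arrays, which may be technical. The labels do not say that equal numbers mark 1 mouse, and arrays were not paired. The genes and lists were chosen with earlier results of these data known. From each list, up to 2 genes with the highest and up to 2 with the lowest difference past the threshold could be named, plus Fxyd1, Kcnj2, Kcnj11, Myh1, Myh2, Myh4 and Myh7, and some of these are not printed. Pecam1 and Kdr, both endothelial markers, were chosen after their values were seen. Alternatives were a filter on dim genes, centring, quantile normalization, other limma settings, and leaving out arrays, cohorts or arrays high in hepatocyte markers.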

Additional observations from a re-analysis of the deposited data

Results flagged for a closer look

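In 30 groups of 4 or 5 arrays, the highest or lowest array was tested by Dixon's rule, under which chance marks about 1.5 groups, and 4 values stood apart. Aqp4 was 6.58 on TA PDX cohort 2 replicate 1, against 7.86 to 7.997 on the other 4 arrays of its group. That array was among those high in hepatocyte markers (mean 4.61). Without it the Aqp4 difference in the tibialis anterior was -0.35 (limma, adjusted p = 0.353), against -0.42 with it.

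TA PDX cohort 3 replicate 1 was lowest for Aqp4 (4.91, against 6.93 to 7.67 on the other 4 arrays of its group) and for Atp1b1 (8.15, against 9.27 to 9.72). This array also had the lowest values of Aqp1 and Clcn1 among the tibialis anterior arrays (7.55 and 7.81) and a mean of 12 denervation genes of 7.34, the highest of the PDX tibialis anterior arrays, whose median was 5.81. For the 5 genes, the report gives results without it where a call changed or a value moved by over 1.5 times.

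Atp1b1 was 9.40 on DIA PDX cohort 3 replicate 4, against 10.04 to 10.22 on the other 4 arrays, and this array had the highest mean of hepatocyte markers (10.79). Without it the Atp1b1 difference in the diaphragm was -0.14 (limma, adjusted p = 0.210).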

How the results depend on the processing

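Counts are of the 5 genes that passed limma's test. In the PDX tibialis anterior the count was 0, against 2 among genes at or above the median level (Atp1b1 and Atp1b2), 1 with array weights, 1 with cohort as an additive term, 1 without cohort 2 and 1 with all arrays fitted together. Leaving out single arrays gave 0 to 2. Atp1b1 passed without TA PDX cohort 2 replicate 3, cohort 3 replicates 1, 2, 3 and 5 or cohort 4 replicate 3, and Atp1b2 without cohort 1 replicate 1, cohort 2 replicate 4 or cohort 3 replicate 2. In the PDX diaphragm the count was 3, against 1, Aqp4, without cohort 2, without cohort 4 and without the arrays high in hepatocyte markers. It was 3 without each single array. With the cohort as the replicate, Atp1b2 had an adjusted p of 0.0711. For the difference of the tumour effects the count was 0, against 2 with array weights and 1 without cohort 3, and 0 to 1 without single arrays. Aqp1 changed sign there without cohort 3 (-0.0329), and Clcn1 in the tibialis anterior without the arrays high in hepatocyte markers (0.0108), both far from passing. Between the sham muscles Atp1b1 also passed with array weights (adjusted p = 0.00532) and with the hepatocyte covariate (adjusted p = 0.0451). With a replicate block on equal numbers the counts were 4 between sham muscles, 5 between PDX muscles and 0 for the difference. They were 3 in the diaphragm and 0 in the tibialis anterior, and no call changed. The diaphragm and tibialis anterior fits each held 1 muscle, so they do not test pairing of the muscles. Of 29 equally numbered pairs of the muscles, 7 had a correlation of deviations over 0.1 (median 0.03) and 14 correlated best with their own number. In cohort 2 these were 4 and 7 of 8 pairs, a hint of pairing there. In cohort 4 they were 1 and 4 of 7 pairs, in cohort 1 they were 0 and 2 of 6, and in cohort 3 they were 2 and 1 of 8. The counts to be met without pairing were not worked out. Not every pair was over 0.1, and the numbers were not used as pairs. This does not exclude that arrays of both muscles came from the same mice. Over all genes, 2979 passed in the tibialis anterior and 2892 in the diaphragm, against 1426 and 1501 without cohort 1 and 1122 and 1018 with the cohort as the replicate. In the diaphragm 1699 passed without cohort 2 and 1438 without the arrays high in hepatocyte markers. For the difference 1468 passed, against 531 without cohort 1, 705 without cohort 2, 403 with the cohort as the replicate and 2690 with array weights. Between sham muscles 9210 passed, against 5815 without arrays high in hepatocyte markers. The cause of these changes was not tested.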
